A study of Saccharomyces cerevisiae with 16 samples.

Results

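The bases of the yeast precursor ribosomal RNA (pre-rRNA) that dimethyl sulfate (DMS) reached in wild-type small subunit (SSU) processomes were mapped by setting 4 DMS-treated libraries against 4 untreated ones. DMS adds a methyl group to the pairing face of A and C, which is exposed where the base is neither paired nor covered, and reverse transcription past that methyl group leaves a mutation in the cDNA. The members of the map were the A and C nucleotides read at least 100 times, by reads of sufficient quality (the effective depth), in each of these 8 libraries. There were 2310 such sites, 1355 A and 955 C, among 3042 A and C in a profile of 6647 nt. The value of a site was its mutation rate, mutated reads over effective depth, in the DMS library minus that in the untreated library of the same replicate number, in percentage points.

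The SSU processome is the large nucleolar particle in which the 18S rRNA begins to fold and its precursor is cut. The precursor starts with a spacer, the 5' external transcribed spacer or 5' ETS, that many of the particle's proteins bind and that is later destroyed, and goes on through 18S, internal transcribed spacer 1 (ITS1), 5.8S, ITS2 and 25S. The U3 small nucleolar RNA pairs with segments of the 5' ETS and of 18S and so keeps parts of 18S from folding early. Cuts at sites A0 and A1 remove the 5' ETS. A cut at A2, which lies within ITS1, leaves part of ITS1 on 18S. The 5', central and 3' major domains of 18S form the body, platform and head of the small subunit, and the 3' minor domain holds the decoding site. 25S and 5.8S belong to the large subunit and are not part of the mature SSU particle.

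Both groups came from Saccharomyces cerevisiae with the Has1-WT form of Has1, an RNA helicase of the DEAD-box family that acts in making both ribosomal subunits. Cells were grown in YPD, a rich medium, to mid-log phase, and particles were purified through a TAP tag on the processome protein Utp10, which all groups carried. The DMS group was treated with 1% DMS at 30 °C for 5 min and the untreated group was not; whether DMS was added before or after purification was not given in the sources used here. The series describes 4 biological replicates, each with its own untreated control, and also holds 8 libraries from Has1-H375A cells, treated and untreated in the same way, which are used below only as a comparison.

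The sequences on which the results turn are printed here as the profile gives them, 5' to 3', named by profile position with 1 at the 5' end, so that 18S runs from position 701 to 2500. In the first set, stretches of consecutive A and C sites with one kind of response, capitals mark those sites and 8 flanking nt are shown on each side.
Open run, 5' ETS 28 to 31: caaguucgAAAAgaguuugg
Open run, 5' ETS 517 to 520: aagaguguAAAAgcuuuuug
Open run, 18S 3' major domain, 2159 to 2163: cugggccgCACgCgcgcuaca
Low run, 5' ETS 126 to 139: aucgucagAuCugCCuAguCuCuauacagc
Low run, 5' ETS 169 to 196: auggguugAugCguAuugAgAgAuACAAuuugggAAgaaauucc
Low run, 5' ETS 407 to 418: ucagcgauAuCAAACguACCauuccgug
In the second set, segments known to pair with small nucleolar RNAs or to hold a cleavage site, capitals mark the segment.
Segment for the 3' hinge of U3, 5' ETS 281 to 291: gcagcgaaGGAUUUGGUGGauuacuag
Segment for the 5' hinge of U3, 5' ETS 470 to 479: gaggaaacUCAAAGAGUGcuauggua
Surroundings of A0, 5' ETS 600 to 620: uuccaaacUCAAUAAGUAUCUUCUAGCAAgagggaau
Segment for box A of U3, nucleotides 9 to 15 of 18S: uaucugguUGAUCCUgccaguag
Segment for U14, nucleotides 83 to 95 of 18S: uauacaguGAAACUGCGAAUGgcucauua
In the third set, the sites with the largest response in the profile and in parts of it, the capital marks the site and 12 flanking nt are shown on each side.
C5557, 25S: uaauuagugacgCgcaugaauggau
A3943, 25S: guuuggguguaaAacccauacgcgu
A2412, 18S: caacuccaucucAgagcggagaauu
A1839, 18S: gcugaaacuuaaAggaauugacgga
C1775, 18S: ugacccacucggCaccuuacgagaa
C454, 5' ETS: uguuugguggaaCcugauuagagga

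The libraries differed in depth and in 1 respect beyond it. Total mutated reads were 12708, 73678, 54744 and 16760 in DMS replicates 1 to 4, and 7598, 31061, 37448 and 9856 in the untreated ones. Median effective depth over the members was between 225 and 1194 reads per library; a rate near 1% has a 95% Wilson interval of 0.244% to 3.18% at the lower depth and of 0.576% to 1.75% at the higher. Intervals cover counting error only, since reads were not counted as molecules. Across sites, the differences of replicates 2 and 3 had a Pearson r of 0.910, and those of replicate 1 had 0.623 to 0.668 with the other replicates, a description over 2309 sites that share libraries and depth. Replicate 1 also had the lowest mean difference at A, so several summaries are given without it as well.

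The difference between DMS and untreated libraries was larger at A than at C in each replicate. The mean rate over A members was 0.960%, 1.30%, 1.25% and 1.28% in DMS replicates 1 to 4, against 0.392%, 0.422%, 0.424% and 0.416% in the untreated libraries. Over C members it was 0.698%, 0.754%, 0.717% and 0.775% in DMS libraries, against 0.382%, 0.356%, 0.352% and 0.404% in untreated ones. No DMS library overlapped with an untreated one for either base. The difference averaged 0.787 ± 0.147 percentage points at A and 0.362 ± 0.034 at C (SD, n = 4), or 0.859 and 0.378 without replicate 1. A exceeded C in 4 of 4 replicates, by 0.424 ± 0.115 points, at an exact sign-flip permutation p of 0.125, which is the smallest that 4 pairs allow in a two-sided test. At G and U, whose pairing faces DMS does not modify under usual conditions, the same differences averaged 0.067 ± 0.023 and 0.039 ± 0.014 points.

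Site by site, 688 of the 2310 members were called higher with DMS and 1 lower by edgeR's quasi-likelihood test on mutated reads, with an adjusted p under 0.05 over 4945 nucleotides of all 4 bases. That is 523 of the A sites (38.6%) and 165 of the C sites (17.3%). Over all 4 bases 14.3% were called higher, and over G and U alone 17 of 2635, or 0.645%. Calls in the lower direction took 0.0607% of all nucleotides tested. Without any model, all 4 DMS libraries lay above all 4 untreated ones at 601 members (26.0%), where G and U gave 1.75%. The difference was above 0 in 4 of 4 replicates at 820 members (35.5%), and at 7.21% of G and U sites.

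A called site with a mean difference of at least 1 percentage point is termed open here, and a called site below that raised. A site that was not called is termed low only where the counts bound it, with the upper end of the 95% Newcombe interval of the pooled difference under 0.5 points, and is otherwise unresolved. That interval pools reads over the replicates, so deeper libraries weigh more and the spread between replicates is left out. By this division 411 members were open, 277 raised, 784 low and 836 unresolved. The remaining 2 members were the site called lower and A1319 (nucleotide 619 of 18S), set aside because its mean rate was 4.67% with DMS and 5.13% without. Unresolved sites were the shallower ones, with a median depth in their shallowest library of 153 reads, against 233 for both open and low sites, and 35 of them had a difference of 1 point or more. Of the open sites 317 (77.1%) were A.

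Differences were uneven across sites. From the 5th to the 95th percentile they ran from -0.229 to 2.17 points at A and C, and from -0.367 to 0.4995 at G and U. The tenth of members with the largest differences, 230 sites, held 49.3% of the summed difference over all members. These sites were ranked by the differences that were summed, and negative differences lower the sum. The share therefore includes counting error, and it was not computed for G and U. The median difference was 1.58 points at open sites, 0.739 at raised ones, 0.355 at unresolved ones and 0.000638 at low ones. Of the open sites 130 reached 2 points and 25 reached 5 points. In 351 of the open sites the libraries of the groups did not overlap, which the call itself favours. Around the depth minimum that chose the members, the 50 shallowest members (100 to 102 reads) had a mean difference of 0.881 points and a median of 0.259, and the 50 deepest sites left out (97 to 99 reads) had 0.441 and 0.200.

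**Figure D1:**
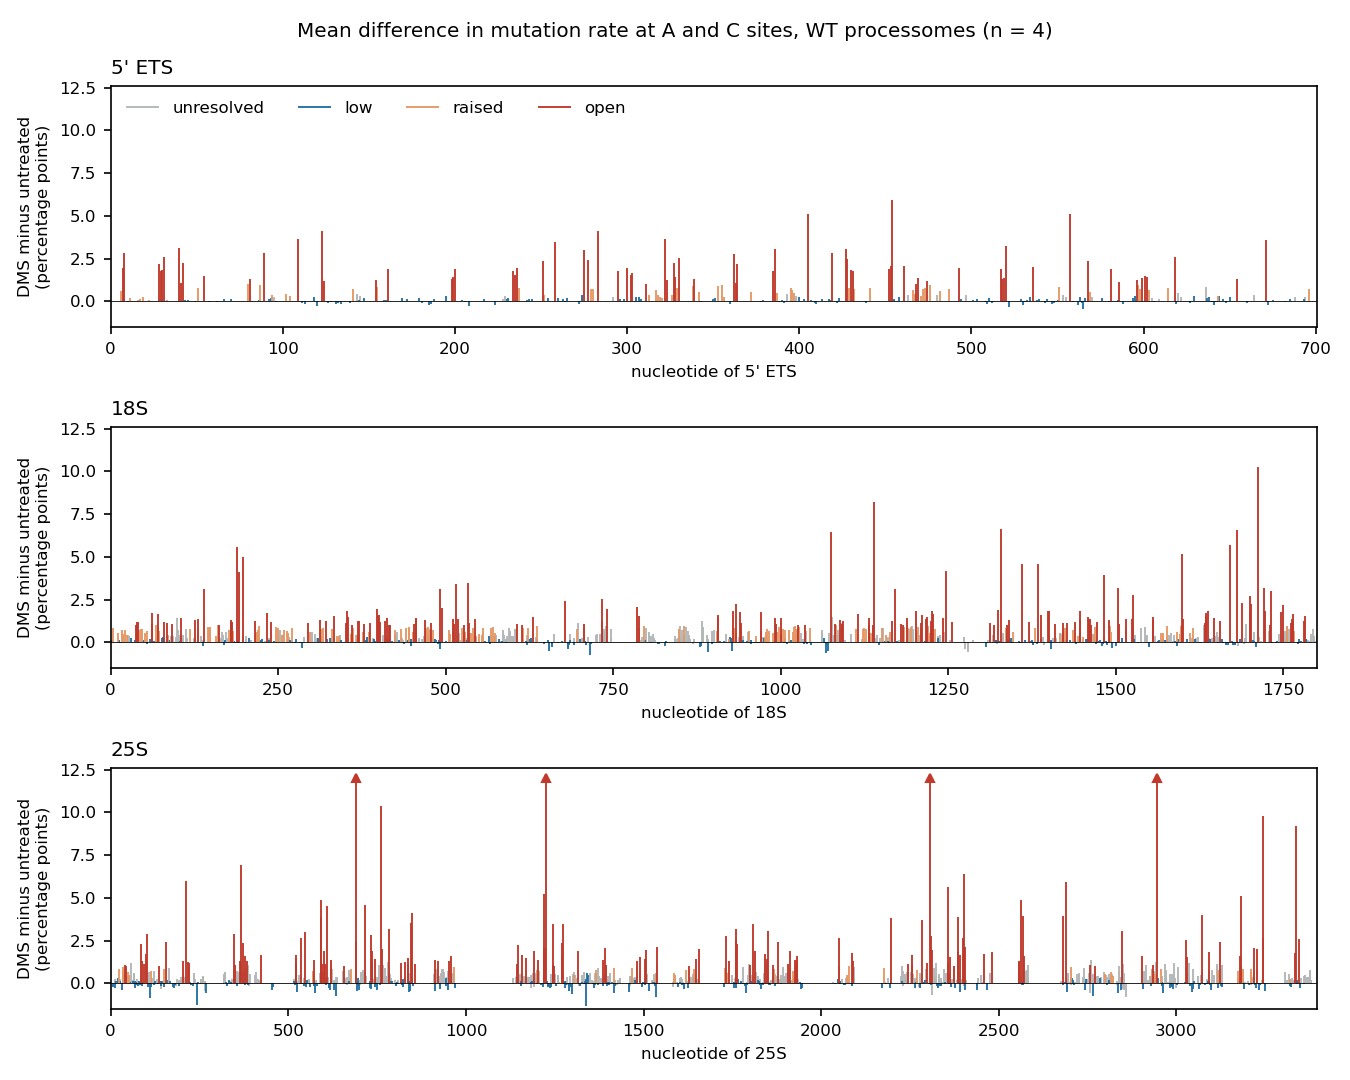
Mean difference in mutation rate (DMS minus untreated, percentage points, 4 replicates) at each A and C member along the 5' ETS, 18S and 25S, coloured by class. Arrowheads mark the 4 sites of 25S above 12 points; open sites (red) and low ones (blue) occur in all 3 molecules, and gaps in 25S are sites below the depth minimum.

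All parts of the precursor with enough depth held open sites. In the 5' ETS 312 of 313 A and C were members, and 74 were open (23.7%), 55 raised, 160 low (51.3%) and 23 unresolved. In 18S 811 of 831 were members, with 165 open (20.3%), 157 raised, 244 low (30.1%) and 244 unresolved. In 25S 1100 of 1561 were members, with 156 open (14.2%), 59 raised, 360 low (32.7%) and 524 unresolved. The median depth in the shallowest library was 791.5 reads in the 5' ETS, 338 in 18S and 139 in 25S, and unresolved sites were more frequent where it was lower; the part of depth in the shares was not tested.

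Within 18S the 3' minor domain had the largest share of open sites. Of its 85 members 25 were open (29.4%), against 50 of 214 in the 3' major domain (23.4%), 58 of 293 in the 5' domain (19.8%) and 32 of 219 in the central domain (14.6%). Raised sites numbered 3 in the 3' minor domain, 35 in the 3' major, 76 in the 5' and 43 in the central domain, where the median depths in the shallowest library were 250, 305.5, 455 and 200 reads. The share of members called higher, open or raised, was thus lowest in the 3' minor domain. It was 32.9% there, and 39.7%, 45.7% and 34.3% in the other domains in the same order. ITS1 had 48 members of 167, which were 8 open, 1 raised, 14 low and 25 unresolved. 5.8S had 39 of 77, with 8 open, 5 raised, 6 low and 20 unresolved. ITS2 had no member among its 93 A and C, so nothing is said of it here.

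The mean response at A was largest in the 3' minor domain. Its 49 A members averaged 0.824, 1.42, 1.34 and 1.60 points in replicates 1 to 4, a mean of 1.29 ± 0.33 (SD, n = 4), or 1.45 without replicate 1. The median over these sites was lower, 0.751 points, close to the 0.733 of the 3' major domain. The mean was above the mean of the 636 A of 25S, 0.772 ± 0.168, in 4 of 4 replicates, by 0.523 ± 0.177 points. The A of the 3' major domain, 0.922 ± 0.173, were also above 25S in 4 of 4, by 0.15 ± 0.057. The 5' ETS (0.763 ± 0.104), the 5' domain (0.729 ± 0.140), the central domain (0.720 ± 0.109), ITS1 (0.664 ± 0.211) and 5.8S (0.728 ± 0.226) lay within each other's spread. At C the 5' ETS was highest, at 0.511 ± 0.053 points, and exceeded 18S (0.403 ± 0.040) in 4 of 4 replicates by 0.108 ± 0.015, although the sign turned when medians over sites replaced means (-0.092). At A the 5' ETS differed from 18S by -0.068 ± 0.076 and was above it in 1 of 4 replicates. Over the 16 contrasts of this kind no adjusted p was below 0.25 (exact sign-flip permutation tests, n = 4).

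**Figure D2:**
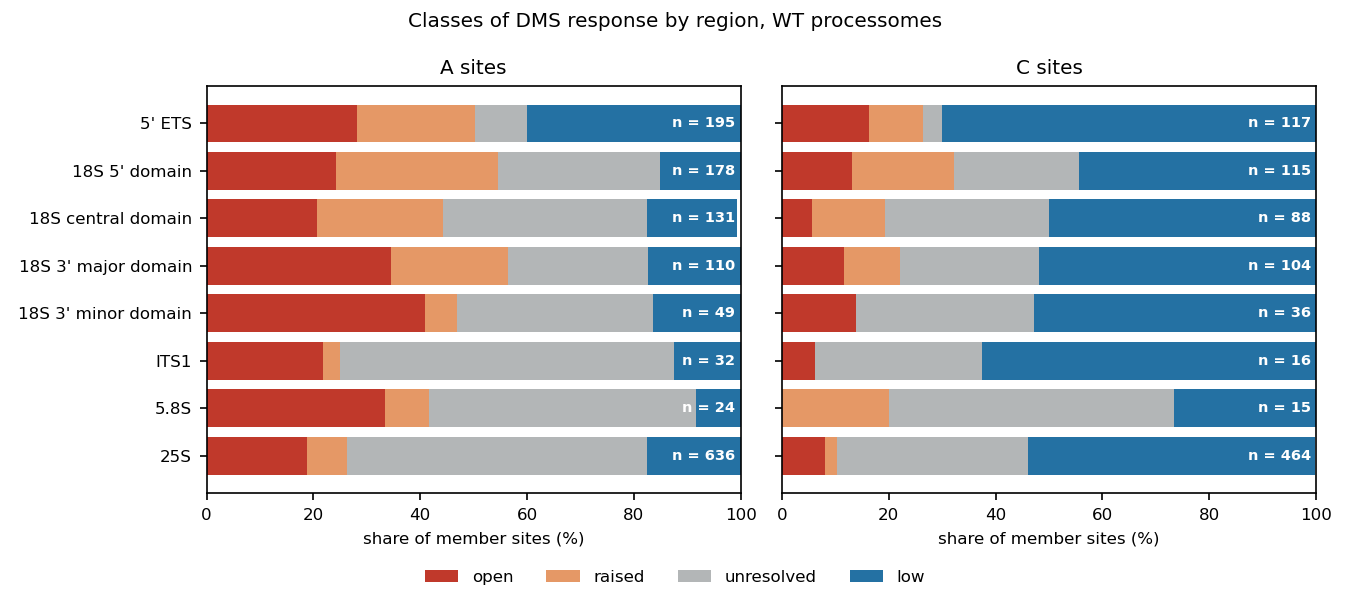
Share of A members (left) and C members (right) that were open, raised, unresolved or low, in percent, by region; n is the number of members. The 3' minor domain has the largest open share at A (40.8%) among these regions, and the 5' ETS the largest low share at both bases (40.0% of A, 70.1% of C).

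The 5' ETS, read most deeply, gave the most complete picture, one of short open patches between stretches of low sites. Its largest differences were at C454, A405 and A557. C454 had rates of 4.85%, 6.71%, 6.94% and 7.91% in DMS replicates 1 to 4, against 0.116%, 1.01%, 0.965% and 0.570% in untreated ones. The groups lay far apart in each replicate, with a mean difference of 5.94 ± 1.08 points (edgeR adjusted p = 3.92e-24). A405 had 4.20%, 5.04%, 6.11% and 6.63% with DMS, against 0.355%, 0.156%, 0.490% and 0.505% without, and A557 had 3.69%, 6.10%, 6.01% and 8.04%, against 1.48%, 0.586%, 0.612% and 0.733%. Both groups of libraries were separate at these sites too, with mean differences of 5.12 ± 0.99 and 5.11 ± 2.12 points (edgeR adjusted p of 1.35e-29 and 9.98e-19).

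The longest runs of members that were all open had 4 sites each, of which there were 5 in the profile, and those at A28 to A31 and A517 to A520, printed above, are those of the 5' ETS, both tracts of A. The first averaged 1.80, 2.24, 2.14 and 2.24 points in replicates 1 to 4, or 2.10 ± 0.21, and the second 1.78, 2.21, 1.92 and 1.87, or 1.95 ± 0.18. The spread between replicates was small beside these values.

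Low runs were longer. The longest in the profile joined 12 sites from position 169 to 196, 10 of them A, with a mean difference of 0.051 ± 0.087 points and single sites between -0.230 and 0.324. The next, 9 sites from 407 to 418, averaged 0.033 ± 0.059, and began 2 nt after the open A405. The third, 7 sites from 126 to 139 (5 runs had this length), averaged -0.079 ± 0.044. The runs of 12 and 9 sites, each the only one of its length, lie in the 5' ETS, the deepest region. The run of 7 shown here does too, and the others of that length are not located here. The part of depth in this was not tested. Along the whole profile, the next member within 3 nt of an open site was open in 32.0% of 350 cases, against 18.3% over all 1927 such pairs, and the next after a low site was low in 51.4% against 33.5%.

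**Figure D3:**
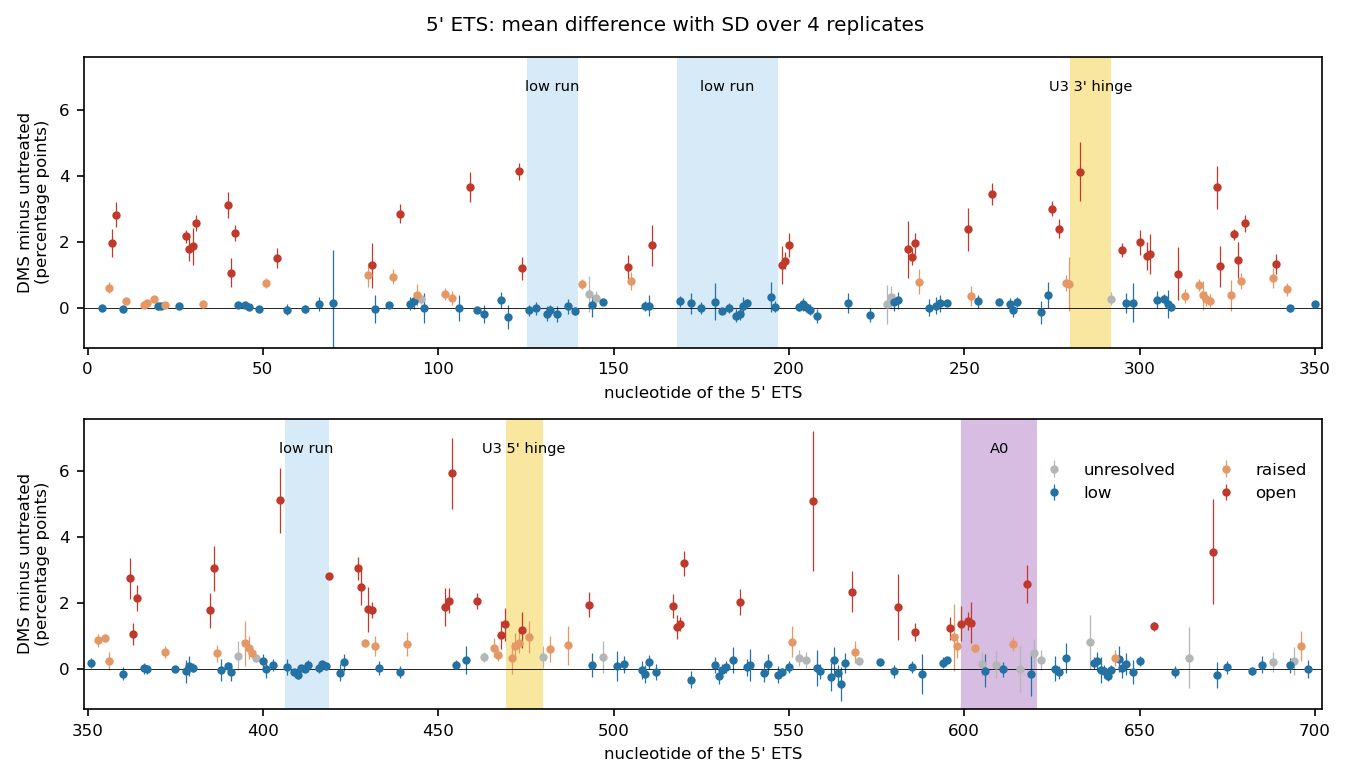
Mean difference (percentage points, bars SD over 4 replicates) at each A and C member of the 5' ETS, by class, with the low runs, the U3 hinge segments and the surroundings of A0 shaded. Open sites reach 5.94 points at C454, while every site of the shaded low runs lies within 0.324 points of 0.

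The segments that pair with U3 differed. The segment for the 3' hinge holds a single A, A283, which had 5.71%, 4.48%, 4.33% and 4.03% with DMS, against 0.265%, 0.767%, 0.80% and 0.208% without. It was open in all replicates, at 4.13 ± 0.88 points (edgeR adjusted p = 4.45e-18), and replicate 1 was the highest. The segment for the 5' hinge has 5 members, all called higher but mostly by little, with a mean of 0.620, 1.01, 1.15 and 0.449 points in replicates 1 to 4 (0.809 ± 0.329). A474 was open at 1.20 ± 0.55 points, and C471 (0.338 ± 0.486), A472 (0.702 ± 0.397), A473 (0.815 ± 0.322) and A476 (0.987 ± 0.494) were raised. The libraries of the groups overlapped at C471 and A472. At C471 the DMS rate was below the untreated one in replicate 1 (0.793% against 0.838%) and replicate 4 (0.497% against 0.614%). The calls of C471 and A472 rested on few libraries: without replicate 2 their adjusted p by edgeR was 0.539 and 0.0822, without replicate 3 it was 0.454 and 0.191, and C471 had 0.126 by DESeq2. In the segment of 18S for box A of U3, A711 (nucleotide 11) was raised at 0.530 ± 0.155 points, while C713 and C714 (nucleotides 13 and 14) were low, at 0.169 ± 0.25 and -0.046 ± 0.246.

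Around the A0 cleavage site, from position 600 to 620, all 12 A and C were members and responses alternated. C618 had 3.69%, 3.13%, 2.49% and 2.77% with DMS, against 0.339%, 0.457%, 0.366% and 0.597% without, and was open at 2.58 ± 0.57 points (edgeR adjusted p = 1.33e-11). C601 (1.46 ± 0.27) and A602 (1.41 ± 0.62) were open as well, A603 (0.640) and C614 (0.765) were raised, A606, C611 and A619 were low, and the other 4 were unresolved. Of those, A616 was called without replicate 1 (edgeR adjusted p = 0.04996). The stretch as a whole averaged 0.626 ± 0.172 points. The same window around A2 in ITS1 held 13 A and C, none of them a member, since its shallowest site had 47 reads.

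In the 5' domain of 18S the largest differences lay close together. A888 (nucleotide 188 of 18S) had 6.01%, 5.49%, 5.36% and 6.86% with DMS, against 0.434%, 0.40%, 0.241% and 0.330% without. C891 had 3.99%, 4.72%, 3.14% and 5.01%, against 0, 0.154%, 0.237% and 0 without DMS, and A898 had 4.57%, 6.68%, 5.18% and 5.35%, against 0.639%, 0.408%, 0.527% and 0.298%. None of the groups overlapped, and the mean differences were 5.58 ± 0.67, 4.12 ± 0.91 and 4.98 ± 0.98 points (edgeR adjusted p of 4.53e-24, 2.88e-24 and 1.59e-20).

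The U14 segment, at nucleotides 83 to 95 of 18S, where the U14 small nucleolar RNA pairs during early folding, was of moderate reactivity. Its 7 members averaged 0.418, 0.733, 0.528 and 0.554 points in replicates 1 to 4 (0.558 ± 0.130). A784 was open at 1.12 ± 0.35 points, with DMS libraries apart from untreated ones (edgeR adjusted p = 1.97e-06). A792 was open at 1.10 ± 0.90 with overlapping groups (adjusted p = 0.0154), a call lost without replicate 2 (0.0558), 3 (0.111) or 4 (0.113) and by DESeq2 (0.0541). A786 was raised at 0.364, lost without replicate 2 (0.560) and by DESeq2 (0.0861). C787 was low, and A785, C790 and A793 were unresolved, although C790 was called without replicate 4 (0.0390). All adjusted p in this paragraph are over every nucleotide fitted.

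In the central domain the largest difference was also the most variable of the 3 named there. At A1839 (nucleotide 1139 of 18S) DMS rates were 5.22%, 12.6%, 10.8% and 6.55%, against 1.29%, 0.483%, 0.516% and 0 in untreated libraries. The site was higher in 4 of 4 replicates, by 8.21 ± 3.68 points (edgeR adjusted p = 3.18e-25), although the DMS libraries themselves spread widely. C1775 (nucleotide 1075) was steadier, at 7.35%, 6.31%, 7.24% and 7.81% with DMS against 1.10%, 0.141%, 0.530% and 1.11% without, a difference of 6.45 ± 0.29 points (edgeR adjusted p = 9.55e-16). A1434 (nucleotide 734) followed at 2.52 ± 1.03.

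In the 3' major domain A2029 (nucleotide 1329) led, with 7.90%, 6.16%, 5.74% and 8.08% with DMS, against 0.413%, 0.117%, 0.370% and 0.333% without. Its difference was 6.66 ± 1.14 points (edgeR adjusted p = 3.87e-21), with C2299 (nucleotide 1599) at 5.16 ± 0.93 and A2084 (nucleotide 1384) at 4.61 ± 0.79 next. An open run in the same domain, C2159 to C2163, was unusual in that 3 of its 4 sites were C. It averaged 1.33, 1.32, 1.23 and 1.26 points in replicates 1 to 4, or 1.29 ± 0.05. C1980 (nucleotide 1280), one of the cytidines that the enzyme Kre33 acetylates, was unresolved at -0.533 ± 0.741.

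The 3' minor domain held the site with the largest difference in 18S. At C its mean difference was 0.362 ± 0.107 points, below the 0.472 ± 0.097 of the 5' domain and near the 0.380 ± 0.077 of the 3' major domain. A2412 (nucleotide 1712) had 7.07%, 12.9%, 12.4% and 12.9% with DMS, against 2.68%, 0.584%, 0.463% and 0.573% without. Replicate 1 had both the lowest DMS and the highest untreated rate, and the mean difference was 10.3 ± 3.9 points (edgeR adjusted p = 3.92e-24), or 12.2 without replicate 1. A2381 (nucleotide 1681) followed at 6.55 ± 2.57 and A2371 (nucleotide 1671) at 5.71 ± 0.95, both with the libraries apart.

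Known functional bases of the 3' minor domain were modestly reactive. A2455 and A2456 (nucleotides 1755 and 1756), which inspect the codon-anticodon helix in the mature ribosome, were raised, at 0.985 ± 0.147 and 0.948 ± 0.402 points. A2481 and A2482 (nucleotides 1781 and 1782), which the enzyme Dim1 dimethylates, were open at 1.23 ± 0.20 and 1.58 ± 0.27. A2456 lost its call without replicate 2 (edgeR adjusted p = 0.186), without replicate 3 (0.0632) and by DESeq2 (0.0625), A2481 without replicate 2 (0.117), and A2482 without replicate 2 (0.0959) or 3 (0.0733). C2473 (nucleotide 1773), the other cytidine that Kre33 acetylates, was low at 0.191 ± 0.677, with 1.17 points in replicate 1 and -0.382 to -0.005 in the others.

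**Figure D4:**
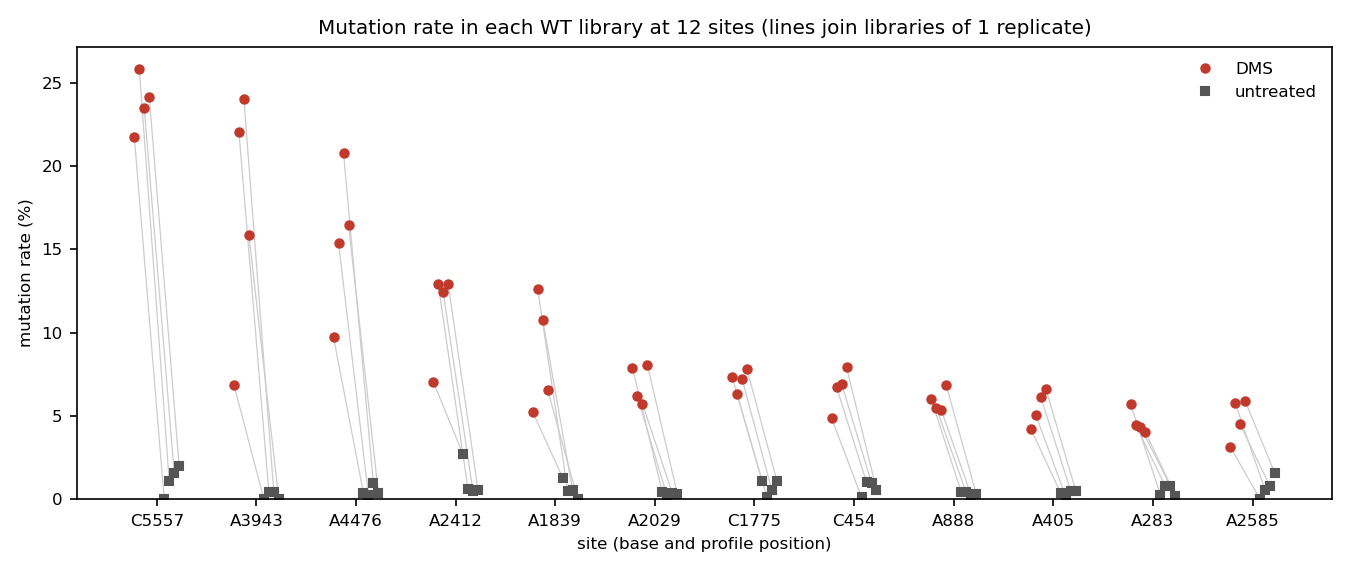
Mutation rate (percent) of each of the 8 libraries at 12 sites, DMS as circles and untreated as squares, with lines joining the libraries of a replicate. At every site shown the DMS libraries lie above the untreated ones; the spread among DMS libraries is wide at A3943 (6.86% to 24.0%) and narrow at C1775 (6.31% to 7.81%).

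ITS1 and 5.8S gave smaller differences. A2585, nucleotide 85 of ITS1, had 3.16%, 5.78%, 4.49% and 5.90% with DMS, against 0, 0.561%, 0.766% and 1.54% without. It was open at 4.12 ± 0.89 points (edgeR adjusted p = 2.13e-10), ahead of C2575 at 2.67 ± 0.60 and A2609 at 1.54 ± 0.96. In 5.8S A2915 (nucleotide 54) reached 1.73 ± 1.05, A2938 1.60 ± 0.32 and A2932 1.40 ± 0.43. The shallowest library had 120 to 160 reads at these sites, and several calls were lost without replicate 2 and also without replicate 3. In that order the edgeR adjusted p was 0.0661 and 0.0827 at A2609, 0.284 and 0.149 at A2938, and 0.186 and 0.0778 at A2932. DESeq2 gave an adjusted p of 0.107 at A2938 and 0.0798 at A2932.

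In 25S lay 8 of the 12 largest differences of the whole map. This region held 1100 of the 2310 members, at a median depth of 139 reads in the shallowest library. C5557 (nucleotide 2306 of 25S) had 21.8%, 25.9%, 23.5% and 24.2% with DMS, against 0, 1.10%, 1.57% and 1.99% without, the largest of all at 22.65 ± 1.42 points (edgeR adjusted p = 1.07e-28). A3943 (nucleotide 692) had 6.86%, 22.1%, 24.0% and 15.9% against 0, 0.454%, 0.430% and 0, a difference of 17.0 ± 7.5, or 20.4 without replicate 1. A4476 (nucleotide 1225) reached 15.1 ± 4.3, A6197 (2946) 13.6 ± 5.5, A4012 (761) 10.4 ± 2.0, A6496 (3245) 9.79 ± 2.91, A6587 (3336) 9.22 ± 2.93 and A3617 (366) 6.94 ± 2.37. The libraries were apart at all of these. Members were 70.5% of the A and C of 25S and 50.6% of those of 5.8S, against 28.7% in ITS1 and 0% in ITS2. Whether the reads of 25S and 5.8S came from precursor or from mature rRNA carried along was not tested.

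Landmarks of 25S behaved unequally. A6278 (nucleotide 3027), the adenine that ricin removes from the sarcin-ricin loop, was open at 2.54 ± 0.66 points (edgeR adjusted p = 0.000615). A6071 (nucleotide 2820), at the centre of the peptidyl transferase site, was unresolved at 0.473 ± 0.416. The adenines with a methyl group on N1, nucleotides 645 and 2142, were not members, with 82 and 32 reads in their shallowest libraries.

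A single member was called lower with DMS. C6252 (nucleotide 3001 of 25S) had 0 mutated reads among 1298 in the DMS libraries, which allows a rate of up to 0.231%, against 7 among 1294 in the untreated ones (0.541%), with rates of 1.79%, 0.212%, 0.502% and 0.877%. The edgeR adjusted p was 0.0300. The call did not last in the fit with replicates as pairs (adjusted p = 0.222) or with any replicate number left out (0.0741 to 0.182).

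The sequence around a base went with its response, most of all at C. A C that followed another C had a mean difference of 0.079 ± 0.033 points (SD, n = 4 replicates; 211 sites), and 1.90% of such sites were open and 72.5% low. A C that followed A had 0.509 ± 0.035 (224 sites), of which 14.3% were open; after G it was 0.450 ± 0.050 and after U 0.377 ± 0.046. The base on the 3' side gave a like order, with 0.182 ± 0.029 before C, 0.281 ± 0.047 before U, 0.481 ± 0.032 before A and 0.499 ± 0.046 before G. A sites ranged less, from 0.626 ± 0.105 before U to 0.932 ± 0.135 before G, and from 0.630 ± 0.139 after U to 0.876 ± 0.142 after G. These are descriptions over sites that also differ in predicted pairing, and no test was made of them.

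Sites with a higher predicted chance of being unpaired had larger differences in each replicate. RNAplfold, which folds the RNA locally from its sequence alone, gave each member a probability of being unpaired, independent of the DMS data. At C the mean difference was 0.109 ± 0.036 points below a probability of 0.25 (554 sites), 0.376 ± 0.017 from 0.25 (182), 0.801 ± 0.046 from 0.5 (135) and 1.30 ± 0.11 from 0.75 (84). At A it was 0.352 ± 0.022 (314 sites), 0.569 ± 0.124 (246), 0.793 ± 0.133 (257) and 1.14 ± 0.25 (537). The step between the highest and the lowest class was thus wider at C, at 1.09, 1.28, 1.19 and 1.19 points in replicates 1 to 4, than at A, at 0.435, 0.909, 0.908 and 0.896. Both were above 0 in 4 of 4 replicates (1.19 ± 0.08 and 0.787 ± 0.235; exact sign-flip permutation p = 0.125 each, n = 4), and without replicate 1 they were 1.22 and 0.904. Open sites made up 44% of C and 36.5% of A in the highest class, and 2.71% of C and 5.73% of A in the lowest.

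**Figure D5:**
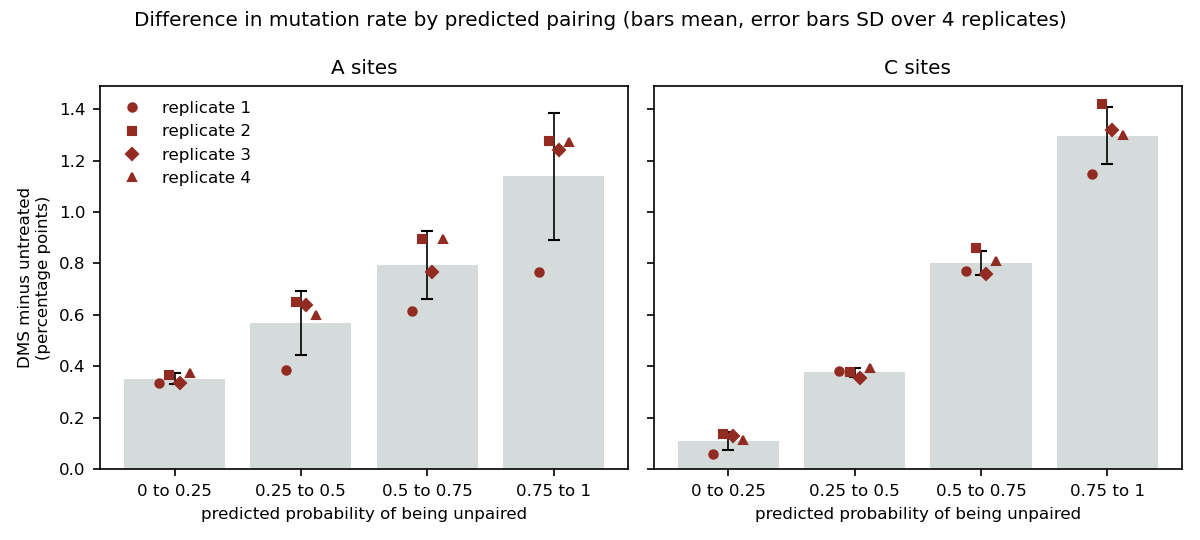
Mean difference (percentage points) at A (left) and C (right) by predicted probability of being unpaired; bars are means, error bars SD, and symbols the 4 replicates. The highest class has a mean of 1.14 points at A and 1.30 at C, above the lower classes, and replicate 1 lies below the others at A in the upper classes.

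The prediction followed the data more closely in the spacer than in the large subunit rRNA. Across sites, Spearman's rho between the probability and the difference was 0.63 at A and 0.68 at C in the 5' ETS, 0.51 and 0.54 in 18S, and 0.26 and 0.33 in 25S, as a description over sites that share libraries and differ in depth. Of sites predicted unpaired with a probability of at least 0.75, 46 of 67 were open in the 5' ETS (68.7%), 94 of 215 in 18S (43.7%), 18 of 28 in the 3' minor domain within it (64.3%), and 85 of 319 in 25S (26.6%). Median depth in the shallowest library was 791.5, 338, 250 and 139 reads in these regions in the same order, and its part was not tested.

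Some bases went against the prediction. Of 621 members predicted unpaired 55 were low (8.86%), among them A530 in the 5' ETS, with 0.204%, 0.501%, 0.450% and 0.745% in DMS libraries, against 0.691%, 0.587%, 0.694% and 0.659% in untreated ones. A869 (nucleotide 169 of 18S), C2181 and C2182 (nucleotides 1481 and 1482) and C714, which lies in the segment for box A of U3, were low in the same way. C2182 varied between replicates, with a difference of 0.202 ± 0.492 points. Conversely 33 of 868 members predicted paired, below 0.25, were open (3.8%). A8, close to the 5' end of the transcript, had a predicted probability of 0.056 and rates of 3.45%, 2.64%, 2.62% and 2.86% with DMS, against 0.0876%, 0.0512%, 0.0385% and 0.0876% without. Its difference of 2.83 ± 0.37 points had an edgeR adjusted p of 4.38e-41. Other such sites were A6197 and C3844 (4.88 ± 1.25) in 25S, C839 (nucleotide 139 of 18S, 3.15 ± 1.19) and A1871 (nucleotide 1171, 3.11 ± 0.60).

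Loops of local hairpins had larger differences than their stems in each replicate. A search of the profile for perfect stems of at least 6 pairs (AU, GC or GU) around loops of 3 to 9 nt found 94; many matches of this kind arise from base composition alone, and none was taken as a known helix. A members in loops averaged 0.876 ± 0.219 points and those in stems 0.503 ± 0.053 (135 and 184 sites), a difference of 0.373 ± 0.171, or 0.455 without replicate 1. C members averaged 0.702 ± 0.123 in loops and 0.138 ± 0.029 in stems (64 and 172 sites), a difference of 0.564 ± 0.106. Both differences were above 0 in 4 of 4 replicates (exact sign-flip permutation p = 0.125 each). A separate search that allowed AU and GC pairs alone found 18 hairpins, where the contrast was wider. Loops and stems had 1.10 ± 0.32 and 0.323 ± 0.061 at A (31 and 47 sites). At C they had 1.54 ± 0.15 and -0.033 ± 0.078 (11 and 39 sites), and no C of a stem was open. The SD is over replicates and leaves out the spread between these few sites.

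Of the hairpins with the most members in their loops, printed here with open sites in capitals, the loops and stems differed to unlike degrees.
25S 5639 to 5664: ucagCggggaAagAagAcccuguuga
18S 1656 to 1676: cguuuucauuaaucAagaacg
25S 4445 to 4462: gacaccacAaaagguguu
18S 1314 to 1334: CaguuaaaaagcucguAguug
The loop and stem means of these were 2.15 and 0.334 points, 0.354 and 0.342, 0.765 and 0.336, and 0.281 and 0.720, in the order printed, so in the last the stem exceeded the loop. The 4 stem members of that last hairpin include A1319, the site set aside above, whose difference of -0.462 points lowers the stem mean. Such means of single hairpins take A and C together. Loops of the 94 hairpins held 135 A and 64 C members, and stems 184 A and 172 C, and no adjustment was made for this. Among the 69 of the 94 hairpins with members in both parts, the loop mean was the higher in 51, and in the 5' ETS in 8 of 11. A pair of these 8, chosen after their values were seen to show stems that were low throughout, is printed next.
5' ETS 507 to 529: ucaagaguguAAAAgcuuuuuga
5' ETS 561 to 576: gaaaaagCaauuuuuc
In the first of these, which contains the open run A517 to A520, 4 of 5 loop members were open with a loop mean of 1.5 points, and 5 of 5 stem members were low with a mean of 0.028. In the second 1 of 3 loop members was open, with a mean of 1.05, and 6 of 6 stem members were low, at -0.015. The other direction was seen at 285 to 299 (loop 0.283, stem 0.689), 357 to 374 (0.732 and 1.06) and 430 to 450 (0.350 and 1.09).

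The map was not detectably different in particles from Has1-H375A cells at the level of single sites. The edgeR test of the genotype by treatment interaction called 0 of 3682 nucleotides (0%; lowest adjusted p = 0.9996), with 103 at an unadjusted p under 0.05, 60 of them among 1719 A and C (3.49%). No other tool was run on it, and a shallow library on either side limits it, so it does not show that the maps are alike. Of the 335 open sites that had the depth in all 16 libraries, 334 had a mean difference above 0 in H375A and 252 one of at least 1 point. These sites were chosen for being high in WT, and the same shares over all A and C sites compared were not computed. Across 1718 A and C sites the mean differences of WT and H375A had a Pearson r of 0.861 and a Spearman rho of 0.746, given as a description.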

How the data were processed

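DMS-MaPseq profiles of yeast pre-rRNA from purified SSU processomes were deposited for 16 libraries, 4 per combination of genotype and treatment; the 8 WT libraries were used, and the H375A libraries for comparison alone. Per the file headers, each profile gave counts of mutated reads and of effective depth for every nucleotide, and the mutation rate as a fraction, which equalled mutated reads over effective depth without subtraction (largest deviation 5e-07). The genome build, aligner, mutation caller and read filters are not given in the sources used here; filters and the handling of deletions act on all rates. Positions are those of the profile, printed sequences come from it, and rRNA names and lengths were checked against the RefSeq annotation of R64. Several rDNA copies were read as 1 sequence.

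Mutated reads at nucleotides with a depth of at least 100 in all 8 libraries were tested by edgeR's quasi-likelihood method (version 4.0.16, R 4.3.3). The offset was log effective depth, no scaling was added, and p-values were adjusted over all 4 bases by the Benjamini-Hochberg method. Differences were taken within replicate numbers, because the series' design text gives each sample its own untreated control. Same-numbered libraries deviated together at r of 0.248, 0.103, 0.201 and 0.041 over 1489 sites, so 1 pair lay below 0.1, and DMS replicate 2 deviated more with untreated replicate 3 (0.185) than with its own number. Summary values were tested by exact sign-flip permutation. Unpaired probabilities came from RNAplfold 2.7.2 (window 200, span 150). DESeq2 1.42.0 and limma 3.58.1 were alternatives. The edgeR test was run on simulated counts with a common dispersion and no pairing of replicates, so that check does not cover differences between sites or replicates in spread. Named sites were the 12 largest called differences, the 3 largest of each region, the 3 longest open and low runs, sites called lower, landmark bases from general knowledge and the 4 hairpins with most loop members. Domain ends are approximate. The members, lists and rules were chosen with earlier results of these data known.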

Additional observations from a re-analysis of the deposited data

Results flagged for a closer look

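In 7 of 98 groups of 4 replicate values looked at, 1 value stood far from the other 3 by Dixon's test; chance alone flags about 1 in 20 groups, or 4.9 here. Replicate 1 was the low value in 3 summaries at A: the mean difference over all A members was 0.569 points there and 0.830 to 0.879 in the others, over the A of 25S it was 0.521 against 0.846 to 0.866, and over A with an unpaired probability of at least 0.75 it was 0.768 against 1.24 to 1.28. These summaries share sites, so they are not independent of each other. At A283, in the segment for the 3' hinge of U3, the highest difference was 5.44 points and the others were 3.53 to 3.82. At A609, near A0, the lowest was -0.440 and the others were 0.271 to 0.390. At A2412 the lowest was 4.39 and the others were 11.97 to 12.35, and at C5557 the highest was 24.8 and the others were 21.8 to 22.2.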

How the results depend on the processing

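All 688 higher calls that could be tested kept their direction in each alternative. Their number was 297 with limma on paired differences and between 364 and 741 with a replicate number or a library left out (364 without replicate 2, 445 without replicate 3); with the replicate block it was 679, of which 664 were among the 688, 464 by DESeq2 (955 members without an adjusted p there), and 593 with libraries scaled by G and U. Calls in the lower direction, 1 in the report, numbered 2 adjusted over A and C alone or scaled by G and U, 0 with the replicate block, at least 10 mutated reads or DESeq2, and 0 to 2 with a replicate or library left out. With a depth minimum of 200 there were 245 open and 452 low sites; open sites numbered 637 from 0.5 points and 130 from 2 points, and low sites 388 with a bound of 0.3 and 1327 with a bound of 1. The mean difference at A was 1.20 without subtraction and 0.512 as a median over sites, and at C 0.736, 0.103 and, at depth 200, 0.403. Loop minus stem was 0.562 at A and 0.677 at C at depth 200, 0.774 and 1.57 with Watson-Crick pairs alone, and 0.229 at C as a median. The step by unpaired probability at C was 1.29 at depth 200, 0.799 as a median and 1.05 with a window of 100. As medians, 5' ETS minus 18S was -0.231 at A and, with the sign turned, -0.0918 at C, and ITS1 at C was -0.00226. Causes were not tested. Among the named sites the replicate block ended only the call of C6252. Depth limits ITS2 most, with no member, then ITS1, 5.8S and 25S.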
